A study of Ovis aries with 17 samples.

Results

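ABCG2 and ABCB1 are pumps of the ATP-binding cassette family, which use ATP to move compounds out of cells. They were chosen by their measured levels over the subsets on these arrays, each read at the probe that carries its name, and they are 2 of the 14537 genes or gene identifiers on the array. No other gene with an ABC family symbol was named on it. RNA from 6 sheep leukocyte subsets was hybridised, 1 sample per one-colour array, to 17 arrays. Spleen gave B lymphocytes (B, 4 arrays), sorted with an antibody against ruminant B cells, and macrophages (MP, 3 arrays), sorted by CD14. Low density blood cells gave plasmacytoid dendritic cells (pDC, 3 arrays) and, by gates on CADM1 and CD172, the conventional dendritic cells labelled XCR1- DC (cDC2, 3 arrays) and XCR1+ DC (cDC1, 1 array). MoDC (3 arrays) came from 3 separate cultures of cells grown with GM-CSF, and were the only subset that had been cultured. The blood donors were Prealpe females, and the breed and sex of the spleen donors and of the source of MoDC are not given in the sources used here. The labels name no treatment. RNA of distinct sheep was mixed where a sort gave too little. By the names of the deposited arrays, that of cDC1 and replicate 2 of cDC2 were pools, and MoDC came from bone marrow, while the labels give neither. Spread between arrays can therefore be smaller than spread between animals.

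ABCG2, also called breast cancer resistance protein, works as a dimer and exports urate, porphyrins, dyes and many drugs. It is known for the efflux of DNA dyes by stem cells and for its place in gut, liver and placenta. ABCB1, or P-glycoprotein, was found as the pump behind multidrug resistance of tumour cells, guards the blood-brain barrier and the gut, and is also known from some lymphocytes. Both have substrates in common, and sheep and cattle transfer several drugs into milk through ABCG2.

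The signal of each gene rests on 1 oligonucleotide of 60 bases, so its bases are shown as deposited, 5′ to 3′, the first 30 for ABCG2 and all 60 for ABCB1. No stretch is in capitals, since the files mark none. The files place neither probe in a genome, an exon or an untranslated region.
ABCG2: cctctttaatttcaatgatttaccccccat
ABCB1: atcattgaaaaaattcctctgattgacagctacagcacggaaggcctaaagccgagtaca
The ABCG2 probe had 35.0% G and C, at the 5th percentile of all 15060 probes (35.0%), and the ABCB1 probe had 43.3%, the median of all probes. The longest run that the ABCB1 probe shared with any other probe was 13 bases. The whole ABCG2 sequence, all 60 bases, was present at a second spot, deposited under another probe name that the files tie to no gene symbol. ABCG2 was therefore read by 2 spots on each array and ABCB1 by 1.

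Levels are given on a log2 scale on which the 75th percentile of each array's background-corrected intensities is 0. The percentile lay between 194 and 688 intensity units on the 17 arrays, 61.1 to 80.2% of spots were well above background by the scanner software, and no spot was saturated. MoDC replicate 3 stood apart: over 11311 genes it correlated with MoDC replicates 1 and 2 at r = 0.866 and 0.882, against 0.975 between those replicates and at least 0.907 within each of the other subsets. Markers were set against the labels. Of 9 listed B cell markers 1 was measured, CR2, and it was highest in B (4.22 ± 0.02, n = 4, and at most -0.53 on any other array). B arrays also carried the T cell marker CD3D (1.93 to 2.72). CD14 was high in MP (5.29 to 6.84) and also in MoDC (5.87 to 6.75). The cDC1 array had the highest CLEC9A (-1.31, not well above background on any other array). The pDC label was less clear: TCF4 read 0.71 to 1.78 in pDC, overlapping B (0.55 to 1.09) and cDC2 (0.53 to 0.83), IRF8 was 4.42 to 5.62 in pDC and highest on the cDC1 array (6.44), and TLR9 was detected on 2 of 3 pDC arrays and also in B, cDC2 and cDC1. In cDC2, SIRPA, the gene of the sorted CD172, stayed under the detection limit throughout, as in every subset, so its probe checks nothing.

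ABCG2 was high in MoDC and dim everywhere else. The MoDC levels were 2.42, 3.22 and 2.89 (2.85 ± 0.40, mean ± SD, n = 3), from intensities of 2026, 6423 and 3912. On B arrays the levels were -4.79, -4.18, -3.83 and -3.58 (-4.10 ± 0.52, n = 4), from intensities of 14.1 to 52.2. The 3 MoDC arrays lay above all 14 others, and the lowest of them exceeded the highest other array, B replicate 4, 64-fold. The genes were chosen for levels of this kind, so these values are a description and carry no test.

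Below MoDC, ABCG2 was close to the detection limit. All 4 B arrays were well above background, as was 1 of 3 arrays each for MP (-3.96, -4.70 and -4.43, replicate 3 detected) and pDC (-4.94, -4.71 and -5.30, replicate 2 detected). No array of cDC2 (-6.35, -6.78 and -5.31) or cDC1 (-4.79) reached that limit at the named spot. In order of mean level, MoDC came first, then B, MP (-4.36 ± 0.37), cDC1, pDC (-4.98 ± 0.30) and cDC2 (-6.15 ± 0.75). B overlapped with MP, with pDC and with the cDC1 array. The MP and pDC values were adjacent without overlapping (-4.70 and -4.71), and so were those of pDC and cDC2 (-5.30 and -5.31). The mean of MoDC was 123-fold that of B, 148-fold that of MP and 227-fold that of pDC, with 2 of 3 arrays of MP and of pDC not well above background. In the authors' normalized table the ratio was 53-fold to B, 55-fold to MP and 66-fold to pDC, and with normexp background correction 36-fold, 31-fold and 38-fold. Against the subsets with no array detected at the named spot, the detection limit of each array was taken where it was higher. MoDC was then at least 190-fold above cDC1 and at least 445-fold above cDC2. At the second spot the bound to cDC2 was 380-fold. These bounds hold for the scaling used here: the ratios were 75-fold to cDC1 and 110-fold to cDC2 in the authors' table, and 7.3-fold and 49-fold with normexp. All cDC2 and cDC1 arrays were on a slide without MoDC, so subset and slide cannot be told apart in these ratios. In these bulk samples, fewer cells with a transcript and less RNA per cell cannot be told apart.

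**Figure D1:**
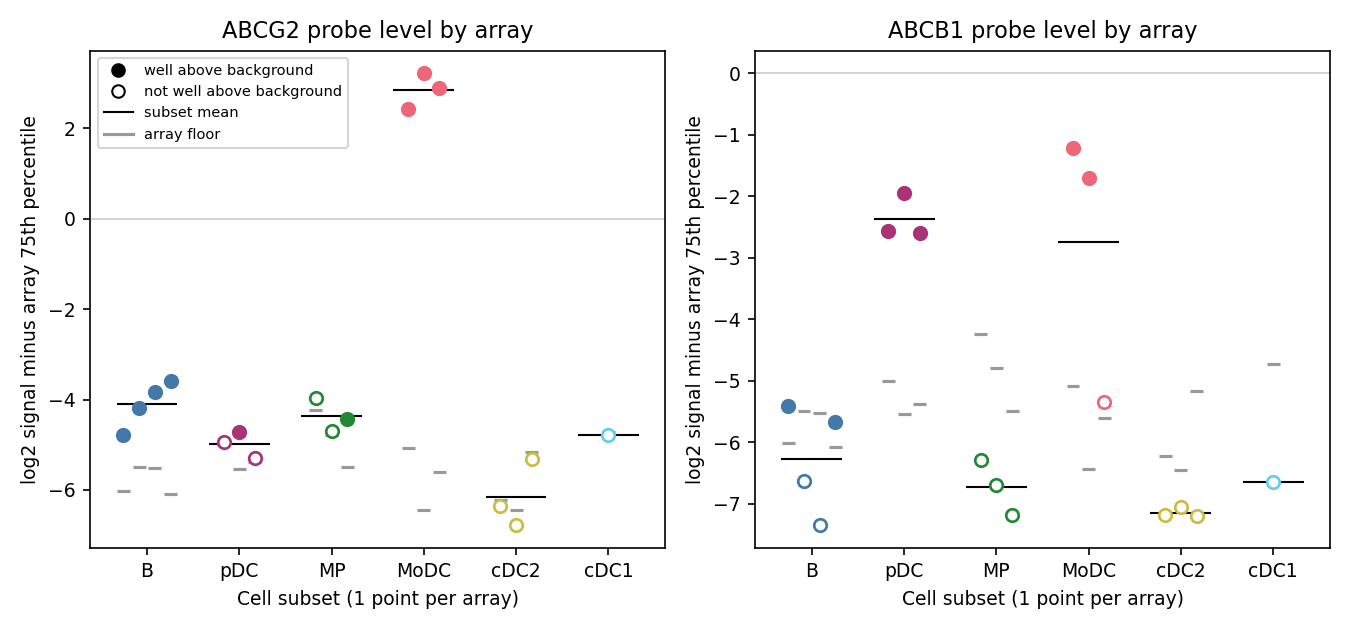
Level of the ABCG2 (left) and ABCB1 (right) probe on each of 17 arrays, as log2 signal minus the 75th percentile of the array, by subset. Each point is 1 array, filled where well above background and open where not, black bars are subset means and grey bars the lowest signal of any probe well above background on that array. The 3 MoDC arrays sit between 2.42 and 3.22 for ABCG2, and the pDC arrays and 2 of 3 MoDC arrays sit between -2.60 and -1.21 for ABCB1.

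The second spot with the ABCG2 sequence repeated the MoDC signal. It read 2.43, 3.22 and 3.00 on the 3 MoDC arrays, within 0.11 of the named spot. Over the 17 arrays the spots differed by less than 0.5 log2 on 12. The largest difference was on pDC replicate 1, where the second spot read 0.76 (intensity 480) and the named spot -4.94 (intensity 9.27). Neither spot carried an outlier flag. The other pDC arrays read -4.75 and -5.10 at the second spot. With replicate 1 the pDC mean there was -3.03, against 2.88 in MoDC, so the ratio to pDC was smaller than at the named spot. Among 218 pairs of probes that share their sequence, spots of a pair differed by a median of 0.10 log2, and by more than 5 log2 in 12 of 2584 values where at least 1 spot was well above background (0.464%). Of those 12, 6 were on pDC replicate 1, from 133 values. With the second spot, the lowest MoDC array exceeded the highest other array by 1.67 log2, and by 6.12 without pDC replicate 1. At that spot cDC2 replicates 1 and 2 were well above background (-5.94 and -5.98, replicate 3 -6.94), and MoDC lay at least 8.58 log2 above cDC2 with the detection limit taken for replicate 3.

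**Figure D2:**
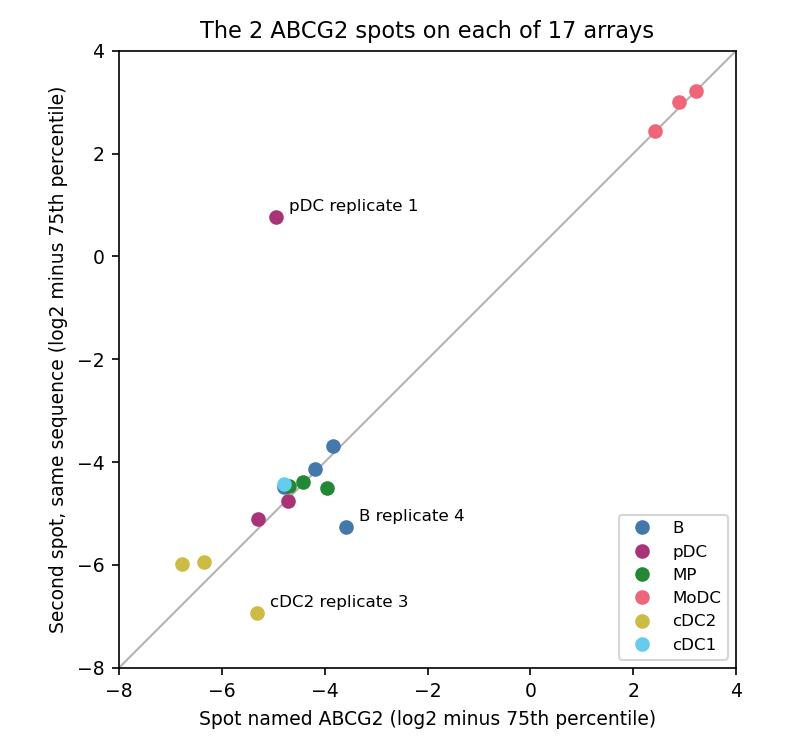
Level at the spot named ABCG2 (x axis) and at the second spot with the same 60 bases (y axis) on each of 17 arrays, both as log2 signal minus the 75th percentile of the array. The grey line marks equal values. The MoDC arrays lie on the line to within 0.11, and pDC replicate 1 lies 5.69 above it.

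The ABCG2 difference was seen within each slide that held MoDC. Replicates 1, 2 and 3 of B, pDC, MP and MoDC were scanned on slides 1, 2 and 3 in that order, and B replicate 4 with the cDC2 and cDC1 arrays on slide 4. Within slides 1, 2 and 3 the MoDC array exceeded the mean of the other 3 arrays by 6.98, 7.75 and 7.41, and the highest of them by 6.38, 7.41 and 6.73. Over all arrays MoDC exceeded the mean of the other 14 by 7.68. Slide 4 held no MoDC array.

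ABCB1 was detected in pDC and in part of MoDC. The pDC levels were -2.57, -1.95 and -2.60 (-2.37 ± 0.37, n = 3), from intensities of 47.8, 101 and 84.3, all well above background. In MoDC the levels were -1.21, -1.70 and -5.34 (-2.75 ± 2.25, n = 3), from intensities of 164, 211 and 13.0. MoDC replicates 1 and 2 were the highest of all 17 arrays, while replicate 3 was not well above background. The 3 pDC arrays with MoDC 1 and 2 lay above the measured values of the other 12 by 2.74 log2 or more. Against the detection limits of those 12, highest on MP replicate 1 (-4.24), the lowest of the 5 was at least 1.64 log2, or 3.1-fold, higher.

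Outside these 5 arrays ABCB1 was well above background on B replicates 1 and 4 alone. B read -5.41, -6.63, -7.35 and -5.67, with those replicates at intensities of 10.4 and 12.3. MP (-6.29, -6.70 and -7.18), cDC2 (-7.18, -7.05 and -7.20) and the cDC1 array (-6.65) had no detected array. With detection limits in place of lower values, the mean of pDC was at least 8.9-fold that of B, 5.54-fold that of MP, 12-fold that of cDC2 and 5.10-fold that of cDC1. The cDC2 and cDC1 arrays shared no slide with pDC, so for these subset and slide cannot be told apart. On the measured values the ratio to B was 14.8-fold. In the authors' normalized table pDC was 3.8-fold over B, 6.5-fold over MP, 5.3-fold over cDC2 and 5.8-fold over cDC1. With normexp it was 2.2-fold over B, 2.1-fold over MP and 2.4-fold over cDC2, and the cDC1 array lay above pDC (-0.21 against -1.70). By mean level the order was pDC, MoDC, B (-6.26 ± 0.89), cDC1, MP (-6.72 ± 0.44) and cDC2 (-7.15 ± 0.08). The pDC and MoDC ranges overlapped, and B overlapped with MP, cDC2 and cDC1. The MoDC mean rests on replicate 3: without it MoDC averaged -1.45, 0.92 log2 or 1.89-fold above pDC in place of 0.38 below. The order of these subsets also turned with the scaling, with pDC minus MoDC at -0.03 after subtraction of the array median and -0.47 in the authors' normalized table.

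Within slides, ABCB1 in pDC exceeded the mean of the other 3 arrays by 1.73, 3.06 and 4.03 on slides 1, 2 and 3. It lay 1.37 and 0.25 log2 below the MoDC array of slides 1 and 2 (differences of -1.37 and -0.25), and 2.74 above that of slide 3. In MoDC replicate 3, where ABCB1 was not well above background, its measured value was 3.88 log2 lower than the mean of replicates 1 and 2. Of 11311 genes, 281 (2.48%) lay at least as far below in that array and 83 at least as far above. ABCG2 differed by 0.07 in the same comparison. The array that stood apart thus had ABCG2 at the level of the other MoDC arrays, with ABCB1 not well above background.

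Some markers of T and NK cells were highest on pDC arrays. Of 15 T cell markers 4 were measured, and their summed level was 4.17 to 5.33 on pDC arrays, 2.85 to 3.24 on B arrays and -2.51 to 2.34 on the rest. CD3E, a chain of the T cell receptor complex, read 4.64, 3.12 and 4.74 in pDC, above every other array (1.85 or less). It was lowest on pDC replicate 2, where ABCB1 was highest among pDC arrays. CD3D read 2.94 to 3.70 and CD247 0.66 to 1.41 in pDC. CD28 was well above background on 1 of 3 pDC arrays and 1 of 3 MP arrays. The NK cell marker measured, GNLY, a cytotoxic granule protein, read 2.11, 4.97 and 3.08 in pDC and at most 0.23 elsewhere. The pDC gate that the study describes was CD45RB+ and negative for B cell antigen, CD11b, TCR1 (the γδ T cell receptor), CD8 and CD11c. It removes γδ and CD8+ T cells and names no antibody against CD3. In MoDC, CD3D was at background on all 3 arrays (-7.10, -7.36 and -7.78). CD3E was low but detected there (-3.96 to -2.53), and GNLY was detected (-1.78 to 0.23). B arrays had CD3D at 1.93 to 2.72, CD3E at 1.03 to 1.55 and GNLY at -4.36 to -1.92. The part of T and NK cells in the ABCB1 level of pDC, or of any other subset, was not tested.

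Few markers of other lineages were measured for the MoDC signal of ABCG2. LTF, a protein of neutrophil granules and 1 of 8 granulocyte markers on the list, read 1.54, -0.20 and 0.96 in MoDC and at most -0.99 elsewhere, and its part was not tested. Of the erythroid list 2 genes were measured: HBB, the beta chain of haemoglobin, was not well above background in MoDC (-8.47 to -7.05), while CA1, a carbonic anhydrase, was seen there and on no other array. None of the listed markers of platelets, of endothelium and stroma or of progenitors was measured by name. EDN1 and DCN, which endothelial and stromal cells are known to make, were on no marker list. Both were well above background in MoDC, EDN1 at the levels given below and DCN dimly (-3.46, -3.66 and -3.20). Their part was not tested.

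Both pumps shared the MoDC subset and little else. Across 17 arrays their levels had Pearson r = 0.51 and Spearman rho = 0.37. Without the 3 MoDC arrays Pearson r was 0.04 over 14 arrays. Most of these points were near background and arrays of a subset are not independent cell types, so these are descriptions.

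The named genes whose levels over the 17 arrays were most like ABCG2 were EDN1, the vasoconstrictor endothelin (Pearson r = 0.957), CA1 (0.957), INHBA, a subunit of activin (0.947), LGALS15, a galectin (0.933), and DCN, the matrix proteoglycan decorin (0.913). EDN1 read 1.35, 1.61 and 1.49 in MoDC and -4.40 or less elsewhere. CA1 read -0.89, -0.07 and -1.23 in MoDC and at most -6.42 elsewhere. INHBA read 4.90, 6.24 and 5.86 against at most -2.11. These genes were, like ABCG2, well above background on all 3 MoDC arrays, and INHBA alone of the 5 was also detected on all MP arrays. EDN1, CA1, LGALS15 and DCN passed the filter through MoDC alone, so their detection there was set by the filter. Outside MoDC nearly all their values were not well above background, so r mostly reflects MoDC against the rest. For probes of any kind the highest r was 0.978 (BL_OTH_F000608) and 0.968 (A_70_P068081), neither tied to a symbol. By the gap between its mean and that of the next subset, ABCG2 ranked 22 of 11311 genes for MoDC, with a gap of 6.94. ABCB1 ranked 878 for pDC, with a gap of 0.38. Both genes were chosen by these levels, so the ranks are descriptions.

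Of the 5 named genes most like ABCB1, 2 were higher on every pDC and MoDC array than on any other array. KLK1, the tissue kallikrein protease (r = 0.944), was near background except in pDC (-3.93, -2.70 and -1.92) and MoDC (-1.41, -2.26 and -3.32). It was lowest among the MoDC arrays on replicate 3, yet detected there. HSD11B1, which regenerates active glucocorticoid (r = 0.841), read -4.46 to -2.85 in pDC and -4.31 to -3.49 in MoDC. IRF2, an interferon regulatory factor (0.835), CTLA4, an inhibitory receptor of T cells (0.777), and XCL1, a chemokine of T and NK cells that binds XCR1 (0.712), followed, each with 1 MoDC array inside the range of other subsets. IRF2 on MoDC replicate 3 (-1.51) lay below all MP arrays (-1.28 or higher). CTLA4 was lowest on MoDC replicate 3 as well (-2.54, -2.98 and -4.66), and there under the cDC2 arrays (-4.57 to -3.98), whereas XCL1 was highest there (-0.21, -1.67 and 1.26) and on MoDC replicate 2 under B replicates 1 and 4 (-1.51 and -1.35). Among all probes A_70_P057166, with no symbol, came after KLK1 at r = 0.911. KLK1 was well above background on 1 array outside pDC and MoDC, B replicate 1.

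**Figure D3:**
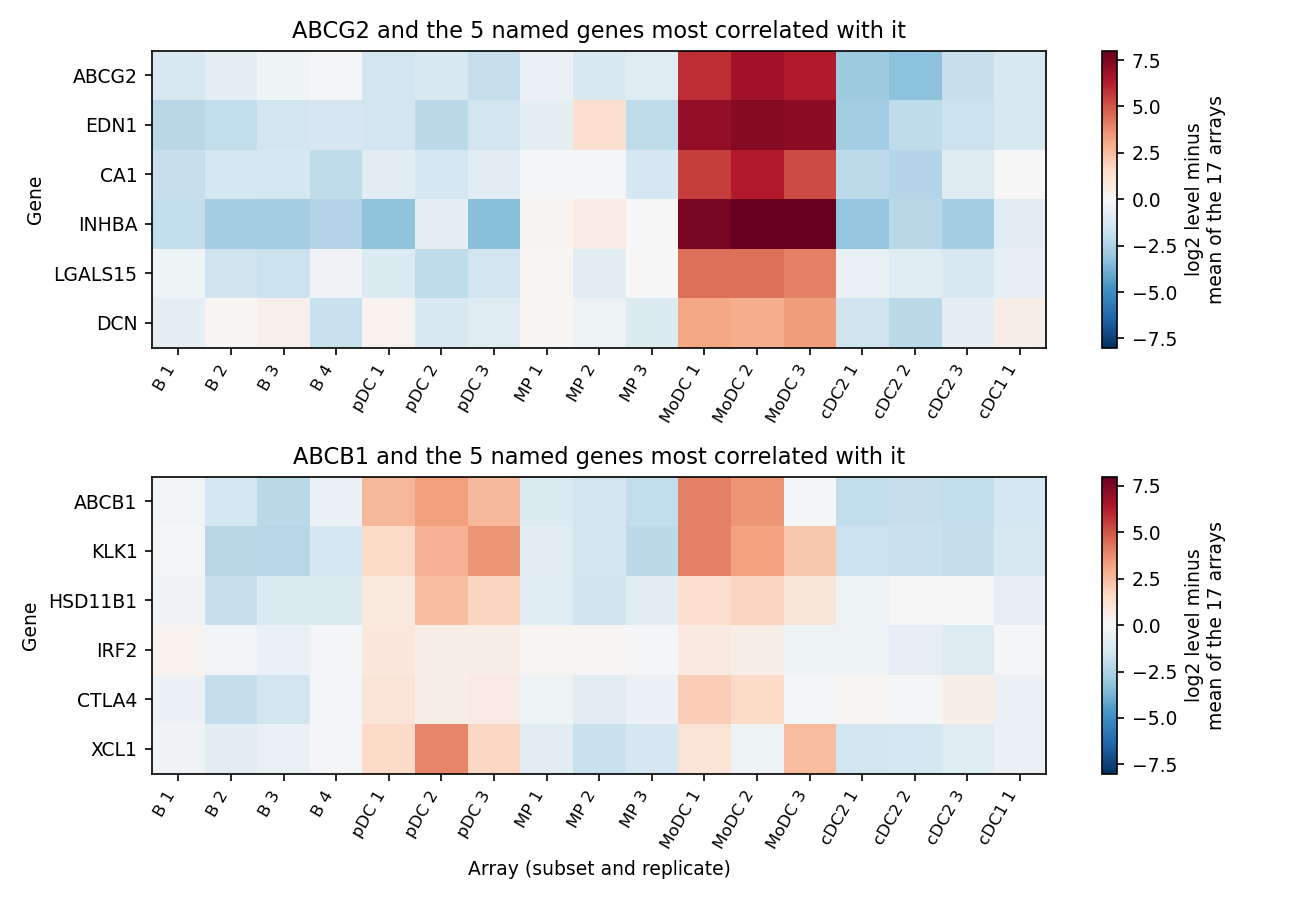
Level of each member and of the 5 named genes most correlated with it on 17 arrays, as log2 level minus the mean of that gene over the 17 arrays (red above, blue below). The genes of the upper panel are high on the 3 MoDC arrays, and those of the lower panel on the pDC arrays and, to differing degrees, on MoDC arrays.

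Other membrane transport genes were tested with limma, each replicated subset against the mean of the other 4, and called at an adjusted p under 0.05 and at least a 2-fold difference. The list was made from symbols of solute carriers, ion pumps, aquaporins and other carriers: 17 were on the array, 16 were measured and 10 were above background in some subset and tested. In MoDC 7 of 10 were higher and 0 lower, with a median difference of 1.70. Of these, SLCO2A1 and SLC6A4 entered the test through MoDC alone, so that a higher level there was set by the filter, and without them 5 of 8 were higher. Over all 11311 genes 33.9% were called in MoDC, with a median difference of -0.28. Of all genes called there 39.1% were higher, and 61.5% when the array median was subtracted instead, which moved the median of all genes to 0.13 and left the list at 8 higher and 0 lower. Within slides 1, 2 and 3 the median of the list in MoDC, against the other 3 arrays, was 1.98, 1.97 and 2.27. The list medians, and the count with the array median subtracted, include SLCO2A1 and SLC6A4 and so are tilted by the filter.

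The largest transport difference in MoDC was that of SLC2A5, the fructose transporter. It read -0.13 to 1.46 in MoDC, at least 54.6-fold over the mean of the others (difference 6.40 ± 1.03 SE, limma adjusted p = 0.000204), though B replicate 3 read 1.80. The SLC2A5 difference was 4.82 in the authors' table and 3.13 with normexp. SLCO2A1, the prostaglandin carrier, read -2.15, -1.48 and -5.08 in MoDC, lowest on replicate 3 as ABCB1 was, and was not well above background in B, pDC, MP, cDC2 or cDC1, a difference of at least 5.93-fold. On the log2 scale the SLCO2A1 difference was 2.89 in the authors' table and 1.08 with normexp. Since it passed the filter by its MoDC level, no p is given. SLC11A1, the metal pump of phagosomes, was higher in MoDC (3.35 ± 0.57 SE, adjusted p = 0.000337) and in MP (4.23 ± 0.57 SE, adjusted p = 0.000119). SLC6A4, the serotonin transporter, also passed by its MoDC level alone. Its MoDC difference was 2.14, at least 1.94-fold with detection limits, 0.98 in the authors' table and 0.03 with normexp. The other 3 that rose were SLC17A5, the sialic acid exporter of lysosomes (3.49-fold), SLC2A3, a glucose transporter (3.02-fold), and ATP1B1, the beta subunit of the sodium pump (2.61-fold). The calls of the 5 that did not enter by MoDC alone held when any 1 of the 17 arrays was left out, while that of ATP1B1 was lost in the authors' table (0.90).

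In pDC and B more transport genes were lower than higher, by counts that depended on the processing. In pDC 1 was higher and 5 lower, of 10, with 19.9% of all genes called. The pDC counts were 1 higher and 3 lower in the authors' table, and 0 higher and 1 lower with normexp. In B they were 0 higher and 4 lower under each of these. SLC2A5 and SLC6A4, among the 5 lower in pDC, were not detected in pDC, and with detection limits the difference of SLC6A4 was 0.17 in the other direction. The one that rose, SLC12A4, a potassium and chloride cotransporter, was above all other arrays in pDC (-1.88 to -1.57) and, like ABCB1, not well above background on MoDC replicate 3 (-3.13, -2.71 and -5.57 on replicates 1, 2 and 3). It was 2.21 ± 0.48 SE above the others in pDC (adjusted p = 0.00337) and lower in MP, where it was not detected (at least 3.73-fold, adjusted p = 0.00077). With normexp the SLC12A4 differences were 0.92 in pDC and -0.53 in MP, neither of them called. SLC11A1 fell by 5.32 on the log2 scale in pDC (adjusted p = 9.56e-06). The calls of SLC2A3, SLC2A5, SLC6A4 and SLC17A5 in pDC were each lost when some single arrays were left out, with adjusted p up to 0.172, 0.0763, 0.252 and 0.0649, in each case with a pDC array among those that ended the call. In B 0 were higher and 6 lower (21.5% of all genes called), with SLCO2A1, among the 6, not detected in B. In MP 3 were higher and 1 lower (18.4%), and in cDC2 1 was higher and 1 lower (16.0%). SLCO2A1 and SLC6A4 passed the filter through MoDC alone, and MoDC is part of the mean compared. The lower calls of SLCO2A1 in B and cDC2 and of SLC6A4 in pDC were therefore favoured by the filter. Those that rose in MP included SLC11A1 and SLC2A3 (3.41-fold). In cDC2, ATP1B1 rose (1.64 ± 0.37 SE) and SLCO2A1 fell. The SLCO2A1 call in cDC2 rests on arrays not well above background and was lost in 8 of 17 omissions, and that of ATP1B1 without cDC2 replicate 1 (1.40, adjusted p = 0.0606). With slide as a block 0 of the cDC2 calls of either list were made, and 45 over all genes.

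The drug response list held enzymes and regulators that handle foreign or reactive compounds, steroids and haem: 17 were on the array and 12 were tested. In MoDC 5 were higher and 1 lower of 12, a share of 50% against 33.9% over all genes, with a median difference of 0.63 (-0.28 over all genes) and, within slides, of 0.57, 0.29 and 1.26. ALDH1A1, which makes retinoic acid and oxidises drug aldehydes, read 3.99 to 4.92 in MoDC, 42.9-fold over the others (5.42 ± 0.48 SE, adjusted p = 8.55e-07). PPARG, a nuclear receptor for fatty acid ligands, read 2.90 to 3.39 in MoDC and at most -0.20 on the other arrays, 30.3-fold over the others (4.92 ± 0.34 SE, adjusted p = 6.23e-08). TXN, the thiol reductant thioredoxin, rose 4.10-fold, YBX1, a cold shock protein that binds nucleic acids, 2.91-fold, and UROD, an enzyme of haem synthesis named here after its values were seen, 2.12-fold. The UROD call was lost without MoDC replicate 3 (difference 0.84), with quantile normalization (0.71), in the authors' table (0.74) and with slide as a block (0.90). The calls of ALDH1A1, PPARG, TXN and YBX1 in MoDC held in each of the 17 omissions.

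In pDC, where ABCB1 was detected on each array, 0 drug response genes were higher and 3 lower of 12, a share of 25% near the 19.9% of all genes. These were ALDH1A1 (-3.65 ± 0.48 SE, adjusted p = 6.62e-05), AHR, the receptor of dioxins and other aromatic ligands (-2.36 ± 0.29 SE, adjusted p = 2.88e-05), and CYP2J, of the arachidonic acid epoxygenases (-1.15 ± 0.26 SE, adjusted p = 0.00488). The CYP2J call was lost without pDC replicate 1 (-0.95, adjusted p = 0.051), in the authors' table and with normexp (-0.78). B had 0 higher and 3 lower (AHR, ALDH1A1 and PPARG), a share of 25% near the 21.5% of all genes. MP had 4 higher and 0 lower, a share of 33.3% against 18.4%: AHR (3.47-fold), CYP2J (3.44-fold), ALDH1A1 (3.37-fold) and CYP4F21, a fatty acid hydroxylase (3.13-fold). The last 2 of these lost the call without MP replicate 2 (adjusted p = 0.173 and 0.0866), and CYP4F21 also without MP replicate 3 (0.123), in the authors' table (difference 0.86) and with normexp (0.62). In cDC2 2 were higher (AHR, and CYP17A1 of steroid synthesis, named after its values were seen) and 3 lower (PPARG, TXN and YBX1), a share of 41.7% against 16.0%. The call of CYP17A1 was also lost in the authors' table (0.76) and with normexp (0.57). The cDC2 calls of CYP17A1 and YBX1 were lost without any one of the 3 cDC2 arrays (adjusted p up to 0.11 and 0.0972).

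**Figure D4:**
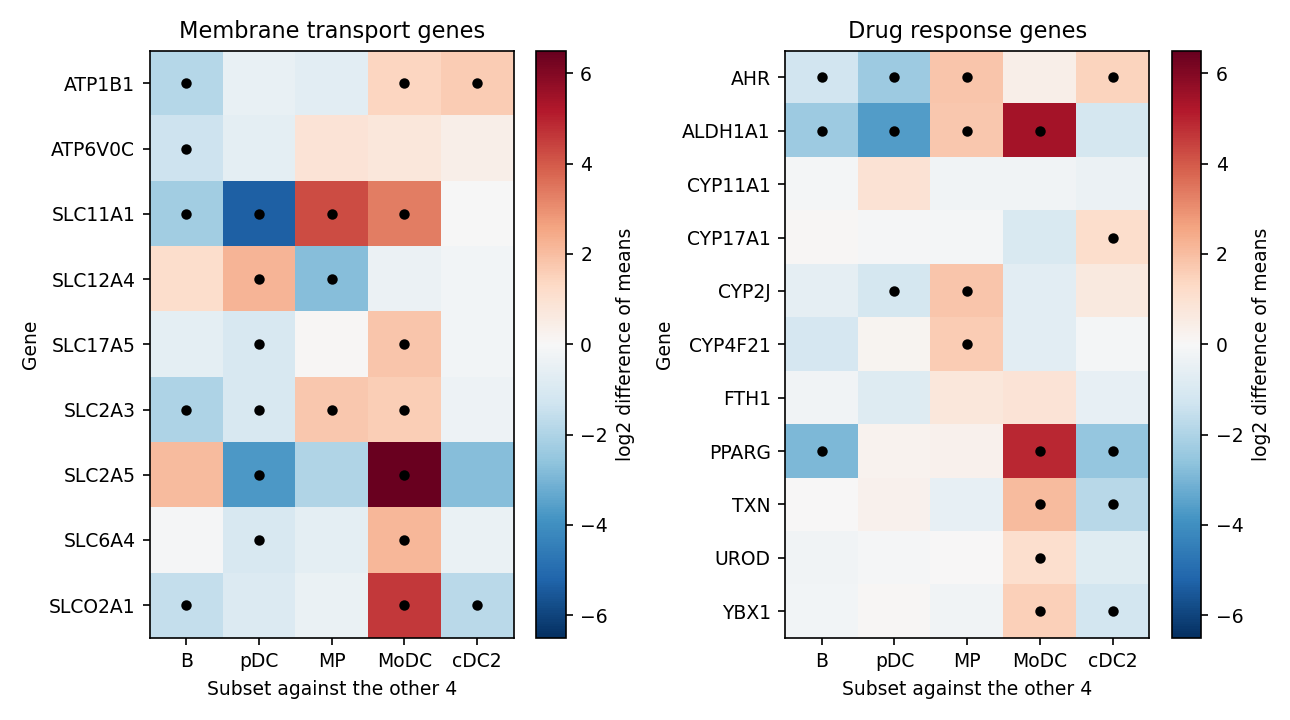
Difference of mean log2 level between each replicated subset and the mean of the other 4, for 9 of the tested membrane transport genes (left) and 11 of the tested drug response genes (right). Black dots mark genes called with limma at an adjusted p under 0.05 and at least 2-fold. The MoDC column holds 7 dots on the left, all higher, and 5 on the right, all higher. Of the 7, SLCO2A1 and SLC6A4 entered the test through MoDC alone, so their direction was set by the filter.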

How the data were processed

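The authors hybridised Cy3-labelled RNA to a custom ovine Agilent array and took the signals from Agilent Feature Extraction. Its version was 10.7.3.1 for 12 arrays and 10.10.1.1 for 5, and an effect of the version was not tested. The deposited intensity is background-corrected on a linear scale and not normalized between arrays. The deposited flags of 0 or 1 mark spots well above background, saturated spots and outliers. The deposited series table holds the authors' normalized log2 values, with the method not stated, and was used as an alternative. Here log2 intensity minus the 75th percentile of the array was used. Of 15208 spots per array that are no controls, 273 spots in all with an outlier flag were left out. Genes entered the tests where a probe had over 50% of its spots above the scanner's background limit in all arrays of some subset (11311 genes, of which 268 with a symbol), using the probe with the highest sum. Symbols came from the files or, by accession, from RefSeq (ARS-UI_Ramb_v3.0), used for names only. Lists were tested with limma 3.58.1 in R 4.3.3 (group means over all 17 arrays, 5 contrasts, Benjamini-Hochberg adjustment over all genes), and the code was tested on simulated data. The labels do not state which arrays are separate animals, and array names call cDC2 replicate 2 and cDC1 pools, so p-values measure spread between these samples.

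The members and the gene lists were chosen with earlier results of these data known, so the members carry no test. Up to 8 called genes per list were named, by the largest difference, beside the 5 named genes and 2 probes most correlated with each member. Alternatives were other scalings, normexp background, the series table, outlier spots kept, no filter, the mean over probes, slide and replicate blocks and omission of each array. The second ABCG2 spot, the mean of both spots and the omission of MoDC from the arrays compared with pDC were added after the data were seen. In each list 1 tested gene is counted but not reported by name here. Replicate numbers did not pair samples by the labels.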

Additional observations from a re-analysis of the deposited data

Results flagged for a closer look

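In the 4 B arrays, the only group of 4 or more, the values of 22 genes (both members and 20 tested list genes) were checked for a single array far from the rest, by the gap to its nearest neighbour as a share of the range. For ATP6V0C, a subunit of the vacuolar proton pump named here after its values were seen, that share was 0.908, with the lowest B array at 0.58 and the highest at 1.81. Chance alone puts about 1 gene in 20 past the threshold used for this share. Neither ABCG2 (0.503) nor ABCB1 (0.37) had such an array in B.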

How the results depend on the processing

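For ABCG2, MoDC minus the mean of all other arrays was 7.68. It was 8.09 with the array median subtracted, 5.06 with normexp, 6.06 in the authors' series table, 6.98 within slide 1, and 7.49 to 7.89 when single arrays were left out. For ABCB1, pDC minus the mean of all other arrays was 3.45. It was 0.72 with normexp, 1.72 in the series table, 1.73, 3.06 and 4.03 within slides 1, 2 and 3, 4.29 with MoDC left out of the other arrays, and 3.24 to 3.81 when single arrays were left out. With normexp the single cDC1 array read -0.20 for ABCG2 and -0.21 for ABCB1, above pDC (-1.70) for the latter, and the cause was not tested. List calls summed over the 5 contrasts were 25 for transport, with those of SLCO2A1 and SLC6A4 included, and 21 for drug response. They were 14 for transport with normexp, and 19 to 26 and 19 to 23 when single arrays were left out. The pDC difference of SLC6A4 was -1.06 and turned to 0.06 with normexp. Genes called over the whole array fell by more than 1.5 times with normexp (B 1242 against 2435, pDC 1283 against 2249, MP 1103 against 2081, MoDC 2212 against 3832 and cDC2 972 against 1810), for MoDC in the series table (2480) and for cDC2 with slide as a block (45), slide as a random block (968) or 1 cDC2 array left out (892 to 1108). The share of calls that were higher in cDC2 was 60.6%, and 42.3% with the array median subtracted.

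Same-numbered arrays deviated from their subset means with correlations of -0.15 to 0.56 (18 of 30 over 0.1), and 13 of 15 arrays correlated best with one of their own number, most of which share a slide. With the replicate block 23 transport and 21 drug response calls were made, and 4 of 46 single calls were lost. Of those 46, 10 were lost with slide as a block, 10 in the series table and 13 with normexp, which also turned 1. Signal over background limits ABCG2 outside MoDC, where 6 of 14 arrays were well above background at the named spot. At the second spot 4 B, 2 pDC, 1 MP and 2 cDC2 arrays were. It also limits ABCB1 outside pDC and MoDC, where 2 of 11 arrays were well above background.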
